A study of Homo sapiens with 3 samples.

Results

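The nucleolar ribosome biogenesis factors described here are 38 genes, chosen by name from among nucleolar proteins, ribosomal RNA processing factors and RNA polymerase I components. They were found by Entrez identifier among the 25702 genes counted. All 38 had at least 10 counts in at least 1 library, the level at which 12879 genes were compared. In the nucleolus, RNA polymerase I copies the ribosomal DNA into a long precursor RNA, and small nucleolar ribonucleoproteins, helicases and assembly factors modify, cut and fold it into the small and the large ribosomal subunit. Many of these factors are textbook targets of the transcription factor MYC and respond to growth signals through mTOR, and they are commonly read as a growth program.

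Molm13 is an established human acute myeloid leukemia cell line with an internal tandem duplication in FLT3. Cultured cells were exposed for 6 h to the vehicle DMSO, to 50 nM pyrvinium or to 100 nM pyrvinium, an anthelmintic dye, and the study asked how the drug changed their transcripts. Each condition has 1 library, made with a strand-specific mRNA kit, so that no difference below has a replicate check, and a comparison of reads compares libraries and not conditions. The libraries held 23165771 (DMSO), 22677038 (50 nM) and 24075123 counts (100 nM). The 38 genes took 1.29% of the DMSO counts (95% Wilson interval 1.29% to 1.29%). Their share was 1.34% of the 50 nM library (1.33% to 1.34%), and 1.33% of the 100 nM library (1.33% to 1.34%). The share of the whole set was thus slightly higher in both pyrvinium libraries.

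The identity of the cells was checked on marker genes. All 11 myeloid markers had at least 10 counts, with 33783, 34661 and 38693 counts in the DMSO, 50 nM and 100 nM libraries, and LYZ, which encodes lysozyme, was the most abundant per length. By the counting interval defined below, 5 of the 11 were lower and 4 higher at 100 nM (25.3% and 24% of all genes tested), so they moved in both directions. FLT3 had 6304, 9012 and 11181 counts and a log2 fold change of 0.77 (0.73 to 0.81) at 100 nM, and SPI1 had 2981, 2667 and 2491 and -0.32 (-0.39 to -0.24). Of 14 markers of T, B, erythroid, epithelial and fibroblast cells, 12 stayed under 10 counts in every library, and the 14 summed to 34, 49 and 28 counts. The other markers were CD3D of T cells, with 26, 18 and 13 counts, and HBB of erythroid cells, with 0, 16 and 0. CD3E, CD2, ALAS2, EPCAM and KRT19 were at 0 in all 3 libraries. The ribosomal RNA genes RNA18SN5, RNA28SN5 and RNA5-8SN5 were also listed at 0 counts in all 3 libraries, so the product of the nucleolus was not measured, and the values below describe the messenger RNAs of its factors.

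The nucleolar transcripts largely held their level after 6 h of pyrvinium, and 1 gene stood out. UBTF, which encodes the upstream binding factor of RNA polymerase I, fell at both doses, and it was the only gene of the 38 whose log2 fold change passed 0.32 in size, a ratio of 5 to 4 and the smaller of the thresholds used. These calls cover counting error only. With the interval widened for an assumed spread between cultures, the call at 50 nM was lost at a coefficient of variation of 0.1, and both were lost at 0.2. Fold changes are log2 ratios of counts, each with 0.5 added, relative to the scaled size of the library, and intervals are 95% exact (Clopper-Pearson) intervals that cover counting error only. By this interval, 6 of 12 small subunit factors and 4 of 5 multifunctional proteins were higher at 100 nM (24% of all genes) and 1 of each was lower (25.3% of all genes), while of 11 large subunit factors 4 were lower and 2 higher. Between the 100 nM and the DMSO library the median log2 fold change of the 38 genes was 0.011, beside -0.0023 over all 12879 genes. By the mean this order turned at 100 nM (0.027 and 0.038) but not at 50 nM (0.028 and 0.022). The range of the 38 genes at 100 nM ran from -0.46 for UBTF to 0.31 for PPAN. Between the 50 nM and the DMSO library the median was 0.039, beside 0.00071 over all genes, and the range ran from -0.36 to 0.19. These are relative levels, and a change of all transcripts per cell cannot be told apart from none.

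At this depth the counting intervals are narrow, and many small differences lie outside them. At 100 nM, 7 of the 38 genes had an interval below 0, against 25.3% of all genes tested, and 17 had one above 0, against 24% of all genes. At 50 nM, 5 genes had an interval below 0 (18.5% of all genes) and 14 above 0 (18.6% of all genes). With a log2 fold change of at least 0.32 in size as well, 1 gene was lower at 100 nM (8.89% of all genes) and 0 were higher (11.5% of all genes). The same rule gave 1 lower (4.78% of all genes) and 0 higher (5.75% of all genes) at 50 nM. At 2-fold, the threshold of the study, 0 of the 38 genes were lower and 0 were higher at either dose. Over all genes that rule gave 0.59% lower and 2.09% higher at 100 nM, and 0.466% lower and 1.02% higher at 50 nM. The interval of a gene with few counts is wide, so the calls depend on depth. Among the 7274 genes whose mean count was at least that of the least counted of the 38, the interval alone gave 2531 lower and 2105 higher at 100 nM, and 1830 and 1790 at 50 nM. With 0.32 log2 units it gave 560 and 613 at 100 nM, and 206 and 243 at 50 nM. At 2-fold it gave only 4 lower and 21 higher at 100 nM, and 1 and 3 at 50 nM. Both comparisons use the same DMSO library.

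The spread among the 38 genes was small. At 100 nM, 37 of 38 (97.4%) lay within 0.32 log2 units of DMSO, beside 83.9% of the 7274 genes. The standard deviation of the log2 fold change was 0.14 over the 38 genes and 0.25 over those 7274. Those 7274 genes meet only the minimum count of the 38, so depth above it was not matched. At 50 nM the standard deviations were 0.11 and 0.17, and 97.4% of the 38 and 93.8% of the 7274 genes lay within 0.32 log2 units. Of the 7274 genes, 197 (2.71%) had a lower log2 fold change at 100 nM than UBTF, and of all genes tested 888 (6.89%) did.

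**Figure D1:**
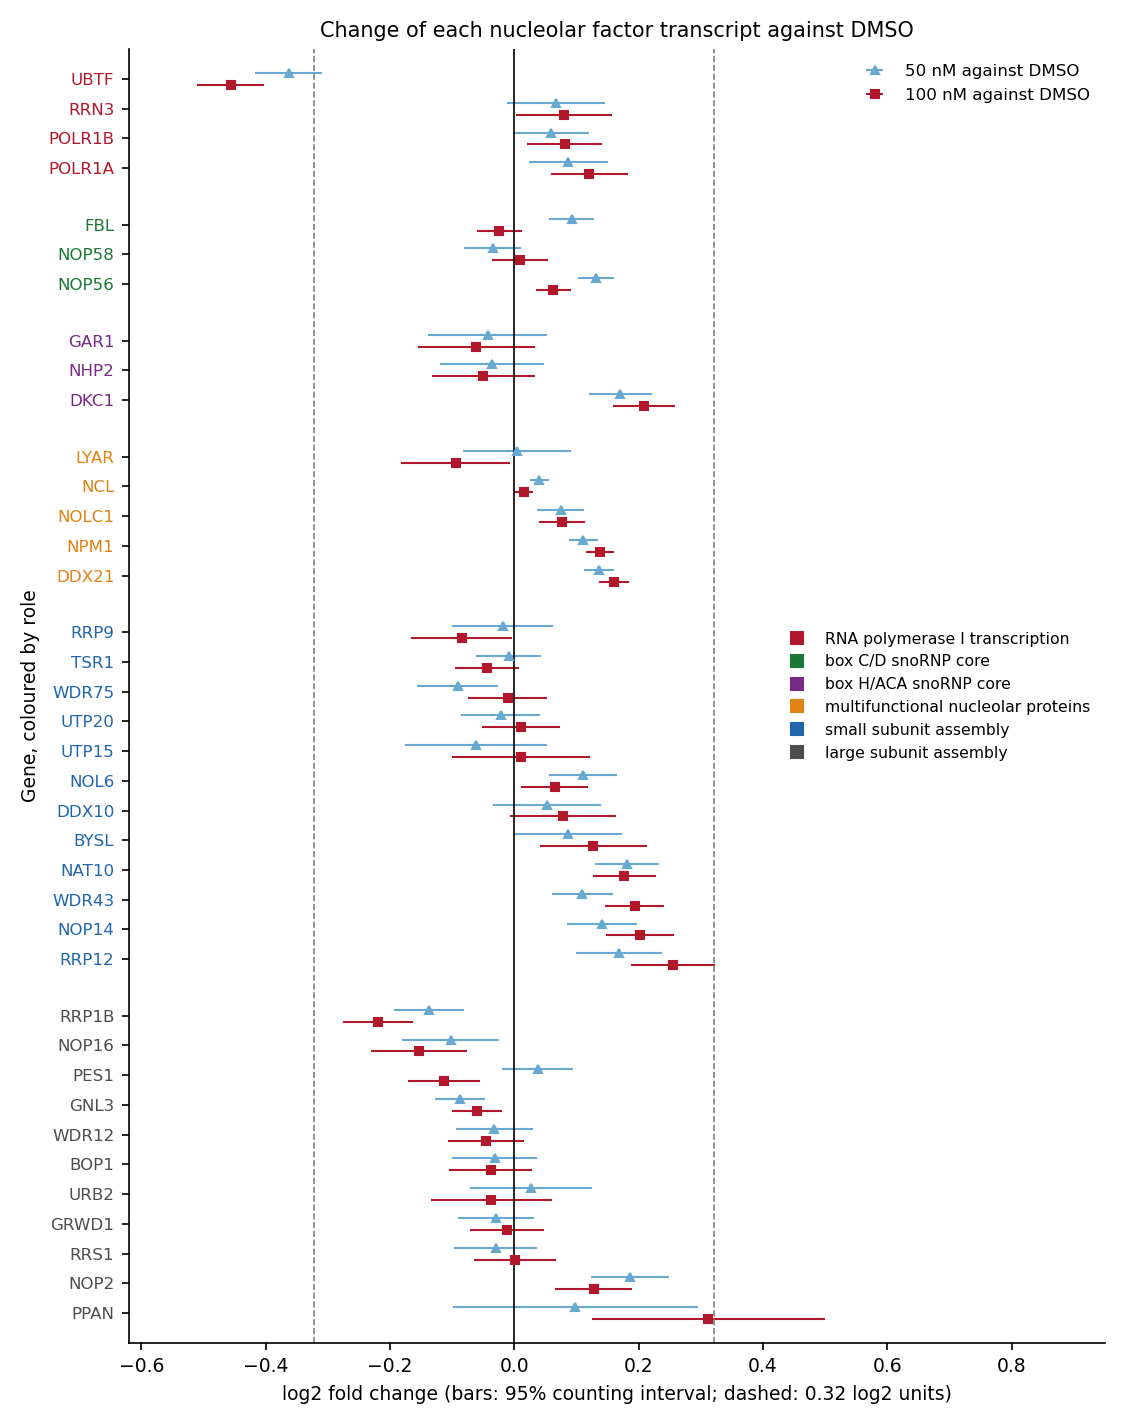
Log2 fold change of each of the 38 transcripts against the DMSO library (x axis) at 50 nM (triangles) and 100 nM (squares), with genes on the y axis grouped and coloured by role, bars for the 95% counting interval and dashed lines at 0.32 log2 units. UBTF lies at -0.36 and -0.46, outside the dashed lines, and the other 37 genes lie between them.

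The first role is transcription by RNA polymerase I. UBTF (Entrez 7343, chr17:42282401-42298250 on the minus strand, hg19) binds ribosomal DNA and keeps it in an open state for the polymerase. It was counted 6441 times in DMSO, 4891 times at 50 nM and 4885 times at 100 nM. Per exonic length this was 112, 87.5 and 83 TPM, where TPM is the count per exonic base as a share of that of all genes. The DMSO library was thus the high one, and the pyrvinium libraries lay close together. The log2 fold change was -0.36 (-0.42 to -0.31) at 50 nM and -0.46 (-0.51 to -0.40) at 100 nM, so that the level at the higher dose fell by 27.1%. Between the doses it was -0.09 (-0.15 to -0.04), so most of the difference was already there at 50 nM.

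The other genes of this role went the other way by small amounts. POLR1A, the largest subunit and part of the catalytic centre, went from 3963 counts in DMSO through 4110 to 4483 at 100 nM, and its log2 fold change at 100 nM was 0.12 (0.06 to 0.18). POLR1B, the second-largest subunit, had 4236, 4309 and 4661 counts, and its log2 fold change was 0.08 (0.02 to 0.14). RRN3, which makes the polymerase competent to start, had 2580, 2639 and 2836 counts and a log2 fold change of 0.08 (0.002 to 0.16). All 3 were thus higher at 100 nM than in DMSO (24% of all genes), with intervals that began close to 0. RRN3 has near-identical pseudogene copies whose reads may be split with it, so its counts are uncertain.

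The 250 bases before the start of transcription were read for those of the 38 genes that RefSeq promoter records (GRCh38.p14) hold, which was 31 genes. NOP58, NOLC1, BOP1, RRP1B, RRP12, RRS1 and URB2 had no entry. The letters CACGTG, the E-box that MYC and its partner MAX can bind and which read the same on both strands, were present before 1 of the starts of DDX21, LYAR, NAT10 and UTP20. That is 4 of 31 genes (12.9%), beside 11.6% of the 9705 genes tested that had an entry, and 4 of 40 promoters beside 8.57% of 14005 promoters. The letters TGATGNAA, the core of the element read by C/EBP and ATF4 dimers, were searched on both strands and were present before 0 of the 31 genes, beside 2.21% of the 9705 genes. A match is only a description of these letters, and their absence concerns only this window. The sequences below are those of UBTF, the gene that fell most, of DKC1, among the genes that were higher, and of NAT10 and UTP20, which hold the E-box letters, given in capitals. They run 5′ to 3′ on the strand of the gene, at chr17:44220883-44221132 (UBTF, minus strand, the outer of its 2 starts), chrX:154762614-154762863 (DKC1, plus strand), chr11:34105379-34105628 (NAT10, plus strand) and chr12:101279855-101280104 (UTP20, plus strand).
UBTF: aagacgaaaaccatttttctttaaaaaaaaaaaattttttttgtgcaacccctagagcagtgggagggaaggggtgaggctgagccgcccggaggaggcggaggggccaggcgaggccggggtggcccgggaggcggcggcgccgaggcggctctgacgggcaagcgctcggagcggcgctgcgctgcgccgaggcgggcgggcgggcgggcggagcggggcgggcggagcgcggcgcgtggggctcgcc
DKC1: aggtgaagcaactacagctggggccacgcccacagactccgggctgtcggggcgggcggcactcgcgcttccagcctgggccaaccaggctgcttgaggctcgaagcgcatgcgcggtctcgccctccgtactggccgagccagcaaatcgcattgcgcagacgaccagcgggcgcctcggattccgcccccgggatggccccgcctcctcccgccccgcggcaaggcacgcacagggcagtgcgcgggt
NAT10: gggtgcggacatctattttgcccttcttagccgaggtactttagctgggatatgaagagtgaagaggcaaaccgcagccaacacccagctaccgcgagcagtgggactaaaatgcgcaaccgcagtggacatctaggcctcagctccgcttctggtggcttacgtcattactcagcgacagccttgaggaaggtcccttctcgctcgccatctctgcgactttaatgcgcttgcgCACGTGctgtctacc
UTP20: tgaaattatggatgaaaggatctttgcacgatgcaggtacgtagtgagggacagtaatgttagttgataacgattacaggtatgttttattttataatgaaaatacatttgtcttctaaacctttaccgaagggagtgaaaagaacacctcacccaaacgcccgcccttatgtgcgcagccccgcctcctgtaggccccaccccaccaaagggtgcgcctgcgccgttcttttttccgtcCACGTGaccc

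With the same letters close to their starts, NAT10 and UTP20 differed in the counts. NAT10, an acetyltransferase that modifies cytidines of 18S rRNA, had 5810, 6436 and 6833 counts from DMSO to 100 nM, which put its log2 fold change at 0.18 (0.13 to 0.23). UTP20, a scaffold protein of the small subunit precursor, had 3991, 3838 and 4183 counts, which put it at 0.011 (-0.05 to 0.07). The UBTF promoter, of which 70.8% of bases were G or C, and the DKC1 promoter held neither motif.

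The second role is the core of the box C/D ribonucleoproteins, which guide methylation of ribosomal RNA. FBL, the methyltransferase fibrillarin, had 12113 counts in DMSO, 12613 at 50 nM and 12391 at 100 nM. The 50 nM library held the most, with a log2 fold change of 0.09 (0.06 to 0.13), beside -0.02 (-0.06 to 0.01) at 100 nM. NOP56, a scaffold of the same particle, had 19098, 20428 and 20756 counts and log2 fold changes of 0.13 (0.10 to 0.16) at 50 nM and 0.06 (0.04 to 0.09) at 100 nM. Its partner NOP58 had 7777, 7413 and 8143 counts, and its interval at 100 nM held 0 (-0.04 to 0.05). These 3 transcripts thus lay at most 0.13 log2 units from DMSO at both doses. SNU13, the remaining core protein of this particle, is not among the 38 genes and was chosen after its values were seen. It went from 3804 counts through 3553 to 3176, at -0.32 (-0.39 to -0.25) for 100 nM, just short of the threshold before rounding. Small RNAs lie in the NOP56 locus, and 87 of its exonic bases are shared with MIR1292 or SNORD86, so its counts are uncertain to that extent.

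The box H/ACA ribonucleoproteins turn uridine into pseudouridine. Of their 3 genes among the 38, 1 was higher at 100 nM by the interval (24% of all genes). DKC1 (Entrez 1736, chrX:153991031-154005964 on the plus strand, hg19), the pseudouridine synthase dyskerin, had 5995, 6587 and 7208 counts from DMSO to 100 nM. Its level followed the order of dose, although the interval between the doses held 0 (-0.01 to 0.09), and the log2 fold change was 0.17 (0.12 to 0.22) at 50 nM and 0.21 (0.16 to 0.26) at 100 nM. GAR1 had 1825, 1730 and 1820 counts and NHP2 2361, 2249 and 2373, and the intervals of these structural subunits held 0 at both doses. NOP10, the remaining subunit of this particle and not among the 38 genes, had 2684, 2289 and 2065 counts and a log2 fold change of -0.44 (-0.52 to -0.35) at 100 nM. Within 1 particle, the enzyme was thus higher, NOP10 lower and the other subunits within counting error of DMSO. Per length in the DMSO library, NOP10 stood at 421, NHP2 at 231, DKC1 at 195 and GAR1 at 121 TPM.

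The nucleolar proteins with several tasks had the highest summed level per length of the roles. Nucleolin, encoded by NCL and a binder of the precursor RNA, had 70254, 70550 and 73845 counts, and per length it was the highest of the 38 genes in every library at 2168, 2241 and 2228 TPM. Its log2 fold change at 100 nM was 0.015 (0.0000156 to 0.03), so its interval only just left out 0. Nucleophosmin, encoded by NPM1 and a chaperone of late assembly, had 29841, 31478 and 34156 counts and a log2 fold change of 0.14 (0.12 to 0.16) at 100 nM. NPM1 has near-identical processed pseudogenes, so its counts are uncertain. DDX21, a helicase that acts in transcription and processing, had 25709, 27594 and 29888 counts and a log2 fold change of 0.16 (0.14 to 0.18), and 204 of its exonic bases lie opposite another gene. LYAR, a nucleolar zinc finger protein, was the exception in direction, with 2152, 2108 and 2097 counts and a log2 fold change of -0.09 (-0.18 to -0.01). NOLC1, a chaperone of small nucleolar ribonucleoproteins, had 11154, 11474 and 12241 counts and a log2 fold change of 0.08 (0.04 to 0.11). At 100 nM, 4 of these 5 genes were thus above DMSO (24% of all genes) and 1 below it (25.3% of all genes) by the counting interval, NCL only at the edge, and all by less than 0.32 log2 units.

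**Figure D2:**
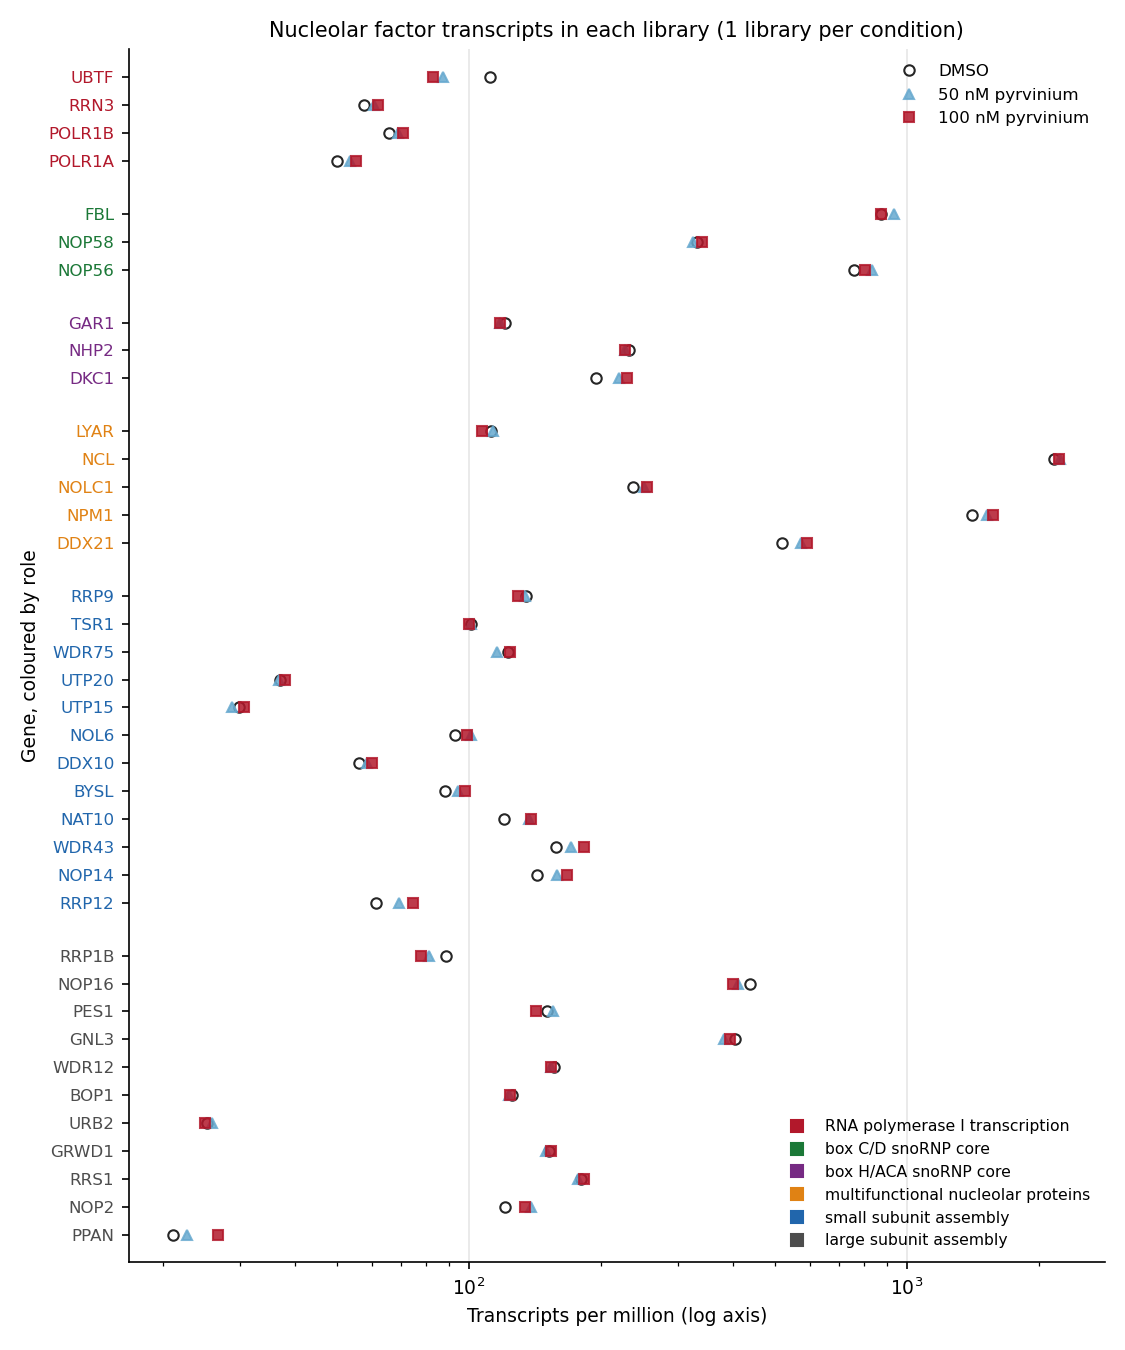
Level per exonic length in TPM (x axis, log scale) of each of the 38 genes (y axis, coloured by role) in the DMSO (open circles), 50 nM (triangles) and 100 nM (squares) library, 1 library each. The levels span from 21.1 for PPAN to 2168 for NCL in DMSO, and the 3 symbols of most genes nearly coincide, with UBTF the clearest exception.

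As a set, these transcripts were abundant. Their median was 124 TPM in DMSO, 136 at 50 nM and 132 at 100 nM, beside 17.8, 17.8 and 18.4 over all genes tested. In the DMSO library 26 of the 38 genes (68.4%) exceeded 100 TPM, beside 12.7% of all genes tested. The 38 genes summed to 10246, 10665 and 10678 TPM in the same order, of which the 5 multifunctional proteins made up 4442, 4706 and 4754.

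The next role is assembly of the small subunit. At 100 nM, 6 of the 12 factors had an interval above 0 (24% of all genes) and 1, RRP9, below 0 (-0.17 to -0.003; 25.3% of all genes), with a median log2 fold change of 0.072. RRP12 (Entrez 23223, chr10:99116458-99161127 on the minus strand, hg19), which acts in the maturation and export of precursors, had 3241 counts in DMSO, 3557 at 50 nM and 4024 at 100 nM. On the log2 scale this was 0.17 (0.10 to 0.24) above DMSO at 50 nM and 0.26 (0.19 to 0.32) at 100 nM, the largest rise among genes whose exons are not shared. NOP14, a component of the small subunit processome, had 4979, 5363 and 5961 counts and a log2 fold change of 0.20 (0.15 to 0.26) at 100 nM. WDR43, which binds the early precursor, had 6588, 6940 and 7839 counts, and its log2 fold change was 0.19 (0.15 to 0.24). Each of these 3 had its lowest level in DMSO and its highest at 100 nM.

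BYSL and NOL6 had intervals above 0 as well, at log2 fold changes of 0.13 (0.04 to 0.21) and 0.07 (0.01 to 0.12). DDX10, TSR1, UTP15, UTP20 and WDR75 had intervals that held 0 at 100 nM. WDR75 was lower at 50 nM, with 3915, 3589 and 4043 counts from DMSO to 100 nM, so it did not follow the dose. Counts of 2 of the 12 genes are uncertain because of exons on the opposite strand, since it is not stated whether the counting used the strand. NOP14 shares 268 bases with NOP14-AS1 and TSR1 shares 1146 with SRR.

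Among the 11 factors of the large subunit, 4 were below (25.3% of all genes) and 2 above DMSO (24% of all genes) by the interval at 100 nM, with a median log2 fold change of -0.04. RRP1B (Entrez 23076, chr21:45079432-45115960 on the plus strand, hg19), a nucleolar protein of the RRP1 family, had 5388 counts in DMSO, 4785 at 50 nM and 4816 at 100 nM. The log2 fold change was -0.14 (-0.19 to -0.08) at 50 nM and -0.22 (-0.28 to -0.16) at 100 nM, the second-lowest of the 38 genes. NOP16, a nucleolar factor of the early large subunit and the most abundant per length of this role at 439, 411 and 402 TPM, had 2813, 2559 and 2632 counts and a log2 fold change of -0.15 (-0.23 to -0.08) at 100 nM. Both were lower at each dose.

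PPAN, another early factor, had the highest log2 fold change of all 38 genes but the fewest counts, 419, 438 and 541. At 100 nM the value was 0.31 (0.13 to 0.50), and at 50 nM its interval held 0 (-0.10 to 0.30). Of its 1662 exonic bases, 1279 are shared with the read-through gene PPAN-P2RY11 on the same strand, so these counts are uncertain. NOP2, a methyltransferase of 28S rRNA, had 3941, 4379 and 4479 counts and log2 fold changes of 0.19 (0.12 to 0.25) at 50 nM and 0.13 (0.07 to 0.19) at 100 nM. PES1, BOP1 and WDR12 encode the 3 proteins of 1 complex and stood at similar levels per length in DMSO, 151, 125 and 156 TPM. PES1 had 5027, 5039 and 4836 counts and was lower at 100 nM (-0.17 to -0.06), while the intervals of BOP1 and WDR12 held 0. GNL3, which encodes nucleostemin, was lower at 50 nM (-0.13 to -0.05) and at 100 nM (-0.10 to -0.02). It shares 10 exonic bases with GLT8D1 on the opposite strand. The intervals of GRWD1, RRS1 and URB2 held 0 at both doses.

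The 50 nM and 100 nM libraries, compared directly, share no DMSO library. Of the 38 genes, 7 had an interval below 0 (14.3% of all genes) and 7 above 0 (12.5% of all genes), and among the 7274 genes 1550 were below and 1143 above. The median log2 fold change of the 38 was 0.0073, beside 0.00092 over all genes, and its sign turned with the mean in its place (-0.00087) and without genes that share exons (-0.0014). The 7 lower genes were NCL, FBL, NOP56, PES1, RRP1B, LYAR and UBTF, and the 7 higher genes were NPM1, NOP14, RRP12, WDR43, WDR75, DDX21 and PPAN. PES1 was lowest at -0.15 (-0.21 to -0.09). Without the 6 genes whose exons overlap another gene, 4 were higher.

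A straight line in dose was fitted over the 3 libraries, which leaves 1 residual degree of freedom and takes departure from the line as spread. By edgeR's quasi-likelihood test with Benjamini-Hochberg adjustment over all 12879 genes, 2 of the 38 genes fell with dose (10.4% of all genes) and 3 rose (10.1% of all genes). UBTF had a slope of -0.46 log2 units per 100 nM (edgeR quasi-likelihood test, Benjamini-Hochberg adjusted p = 0.000347), and both pyrvinium libraries were lower. For RRP1B the slope was -0.22 (edgeR quasi-likelihood test, Benjamini-Hochberg adjusted p = 0.0314), with both pyrvinium libraries lower. The rising genes, higher in both pyrvinium libraries, were RRP12 with a slope of 0.25, NOP14 with 0.20 and DKC1 with 0.21. Their Benjamini-Hochberg adjusted p from edgeR's quasi-likelihood test was 0.0138, 0.0487 and 0.0491. At an unadjusted p below 0.05, 9 of the 38 genes passed, beside 4262 of the 12879 genes. With DESeq2 size factors in place of TMM, DKC1 was no longer called (edgeR quasi-likelihood test, Benjamini-Hochberg adjusted p = 0.0506). With DESeq2's Wald test of the same term, 1 gene, UBTF, was called lower (240 of the 12879 genes) and 0 were called higher (329 of the 12879 genes).

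**Figure D3:**
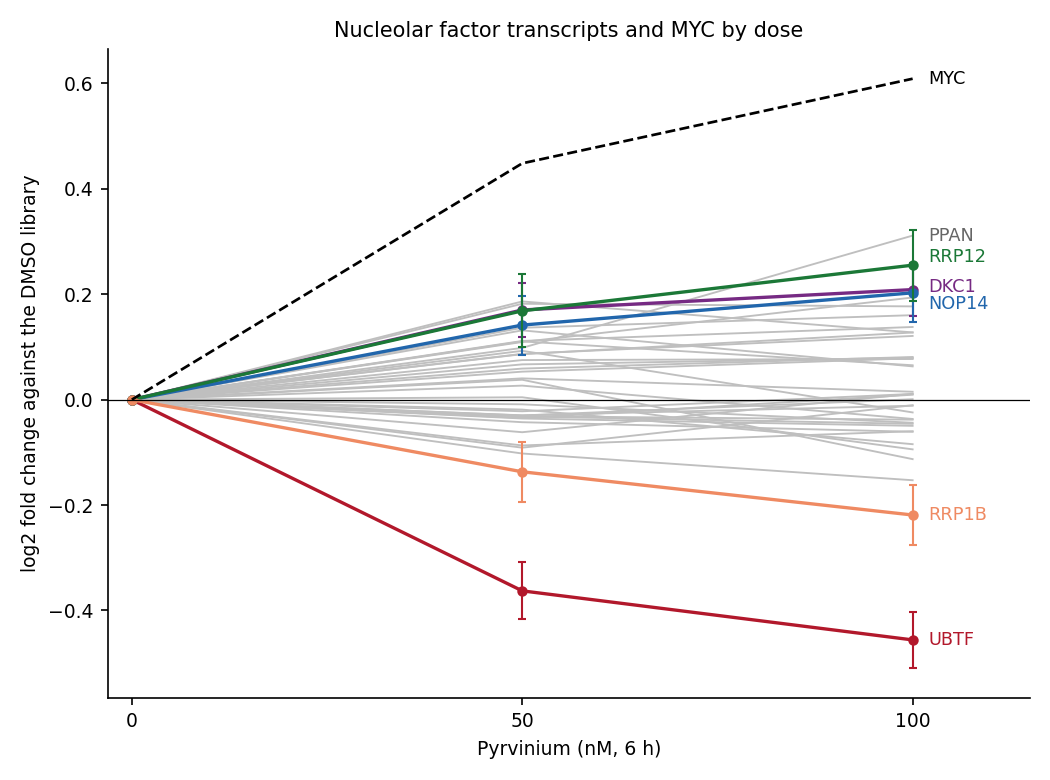
Log2 fold change against the DMSO library (y axis) by pyrvinium dose in nM (x axis) for the 38 genes, with the 5 genes called by edgeR's dose trend in colour with 95% counting intervals, the other 33 in grey, and MYC as a dashed line. UBTF drops mainly by 50 nM, while MYC reaches 0.61 at 100 nM and all 38 genes remain below it.

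MYC, the transcription factor whose targets include many of these genes, was itself higher. It had 21175 counts in DMSO, 28215 at 50 nM and 33596 at 100 nM, which gives log2 fold changes of 0.45 (0.42 to 0.47) and 0.61 (0.58 to 0.63). Beside this, 0 of the 38 nucleolar factors were higher by 0.32 log2 units at 100 nM (11.5% of all genes) or at 50 nM (5.75%). By the interval alone, 17 of them were higher (24% of all genes) and 7 lower (25.3% of all genes) at 100 nM. MYC was read with its partner MAX and with MXD1, MXD3, MXD4, MXI1, MNT and MGA, whose proteins also pair with MAX. Of these 8 genes, 2 were higher (11.5% of all genes) and 0 lower (8.89% of all genes) by 0.32 log2 units at 100 nM. Beside MYC, the higher gene was MGA, at 0.34 (0.25 to 0.44). MXD1, MNT and MXI1 lay above 0 and MXD4 below it, with intervals that held 0, and MAX lay at -0.12 (-0.22 to -0.02). The lowest was MXD3, a repressor that pairs with MAX and whose exons overlap PRELID1. It had 202, 161 and 187 counts and a log2 fold change of -0.17 (-0.46 to 0.13). At 50 nM, 1 of the 8 was higher (5.75% of all genes) and 1 lower (4.78% of all genes) by 0.32 log2 units. The lower gene was MXD4, another such repressor, with 378, 290 and 358 counts and -0.35 (-0.57 to -0.12), while MGA stood at 0.23 (0.14 to 0.33). Of the 10 other MYC targets outside the ribosome, 6 were lower (25.3% of all genes) and 2 higher (24% of all genes) by the interval at 100 nM, with a median of -0.12. At 50 nM, 2 were lower (18.5% of all genes) and 3 higher (18.6% of all genes), with a median of -0.0048. CAD, the enzyme that starts pyrimidine synthesis, had 6513, 8202 and 9724 counts and a log2 fold change of 0.52 (0.48 to 0.57), and LDHA, lactate dehydrogenase, had 37727, 30972 and 27796 counts and -0.50 (-0.52 to -0.48).

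Related genes outside the 38 give the setting. Of 135 other ribosome biogenesis genes in 5 lists, 57 were lower (25.3% of all genes) and 33 higher (24% of all genes) by the interval at 100 nM, with a median log2 fold change of -0.07 beside 0.011 for the 38, and 7 were lower (8.89% of all genes) and 2 higher (11.5% of all genes) by 0.32 log2 units. Of 11 other RNA polymerase I factors, 4 were lower (25.3% of all genes) and 4 higher (24% of all genes) by the interval at 100 nM. Their median was 0.018, and the extremes lay in opposite directions. TAF1D, a subunit of the selectivity factor, had 2088, 2610 and 3103 counts and a log2 fold change of 0.51 (0.43 to 0.60) at 100 nM. POLR1G, a subunit of the polymerase whose exons overlap ERCC1 and PPP1R13L, had 2232, 1839 and 1732 counts and -0.42 (-0.51 to -0.33). The machinery around UBTF thus held differences in both directions.

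Of 48 other small subunit factors, 21 were lower and 9 higher by the interval at 100 nM, beside 25.3% and 24% of all genes here and for the lists that follow, with a median of -0.07, from RRP36 (1640, 1276 and 1160 counts) at -0.56 (-0.67 to -0.45) to DHX37, a helicase (2840, 3021 and 3610 counts), at 0.29 (0.22 to 0.36). Of 52 other large subunit factors, 18 were lower and 17 higher, with a median of -0.05, from ISG20L2, a nucleolar exonuclease (2019, 1596 and 1462 counts), at -0.52 (-0.62 to -0.43) to URB1 (2555, 2843 and 3286 counts) at 0.31 (0.23 to 0.38). The list of 10 genes that holds NOP10 and assembly factors of the small nucleolar ribonucleoproteins had a median of -0.16, with 5 lower and 1 higher, from NOP10 to ZNHIT6 (1542, 1753 and 1926 counts) at 0.26 (0.17 to 0.36). The 14 genes of the RNA exosome, which trims the precursors, had a median of -0.13, with 9 lower and 2 higher, from EXOSC9 (1750, 1398 and 1388 counts) at -0.39 (-0.49 to -0.29) to EXOSC8 (2845, 3016 and 3424 counts) at 0.21 (0.14 to 0.28). Exons of URB1, EXOSC9 and EXOSC8 overlap MRAP, CCNA2 and SUPT20H, in that order, so their counts are uncertain. At 100 nM the medians of these 4 lists thus lay below 0 and that of the 38 genes just above it, and whether the lists differ was not tested. The median of the 7274 genes was also below 0, at -0.02. At 50 nM the median of the large subunit list was 0.0049. Those of the small subunit list, the list with NOP10 and the exosome were -0.04, -0.11 and -0.07. The last list holds subunits of RNA polymerase III, which makes 5S and transfer RNA, and other factors that act with it. It had 8 of 20 genes lower and 6 higher, with a median of 0.0024, from POLR3G (1749, 1348 and 1231 counts) at -0.56 (-0.67 to -0.46) to POLR3D (1505, 1710 and 1983 counts) at 0.34 (0.24 to 0.44). Among the lower was MAF1, a regulator and not a subunit, at -0.19 (-0.24 to -0.13).

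The 79 cytosolic ribosomal proteins, which the factors join to the ribosomal RNA, had a median of 0.06 on the log2 scale at 100 nM, beside 0.09 at 50 nM. Of these, 49 were higher (24% of all genes) and 8 lower (25.3% of all genes) by the interval at 100 nM, and 0 passed 0.32 log2 units. At 50 nM, 54 were higher (18.6% of all genes) and 4 lower (18.5% of all genes), and 1 passed 0.32 log2 units. This was RPL12, with 7397, 9818 and 9521 counts and 0.44 (0.40 to 0.49) at 50 nM. At 100 nM it was again the highest, at 0.31 (0.26 to 0.35), and the lowest was RPS28, with 494, 509 and 444 counts and -0.21 (-0.40 to -0.02).

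**Figure D4:**
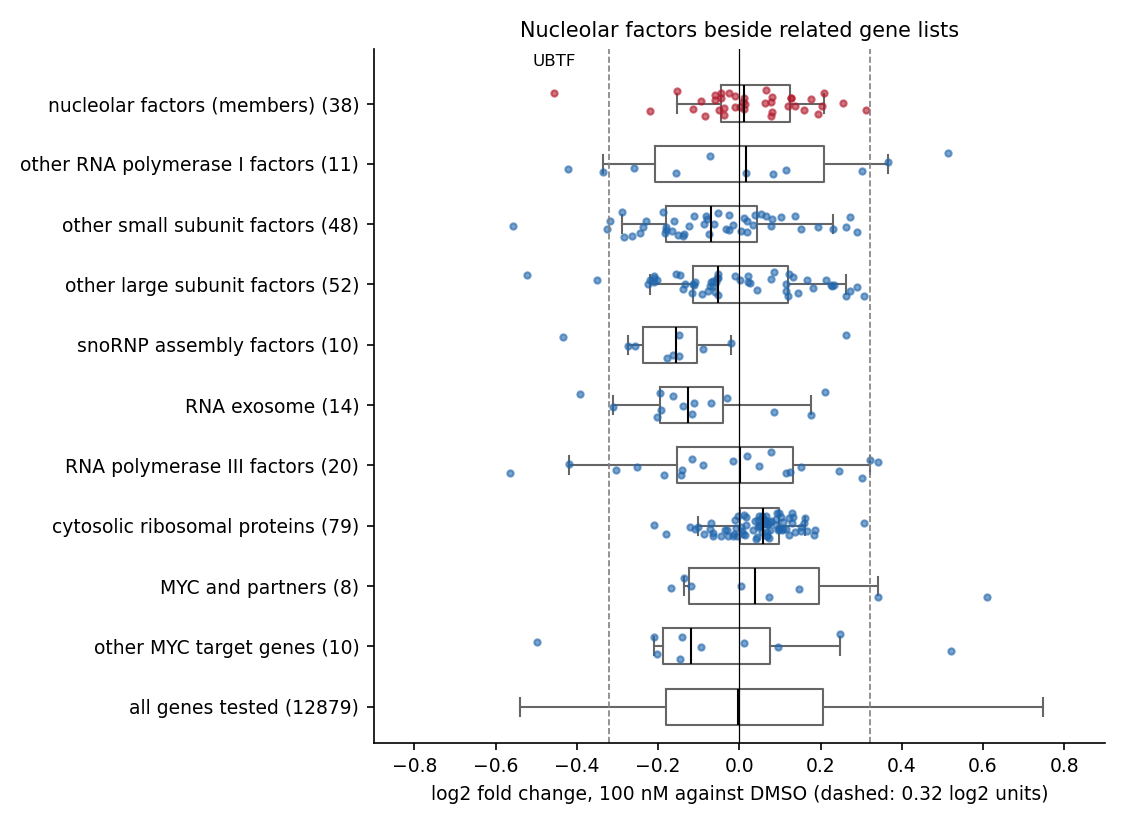
Log2 fold change of 100 nM against DMSO (x axis) of single genes (points), with boxes for the quartiles and median and whiskers from the 5th to the 95th percentile, for the 38 nucleolar factors, 9 related lists and all 12879 genes tested (y axis, number of genes in brackets, dashed lines at 0.32 log2 units). The 38 factors centre near 0.011 with UBTF apart at -0.46, and the boxes of the snoRNP assembly factors and the RNA exosome lie below 0.

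Measures of the libraries that moved with dose are given beside these results. The mitochondrial ribosomal RNAs took 0.691% of counts in DMSO, 0.85% at 50 nM and 1.59% at 100 nM, and their part in the differences of the 38 genes was not tested. Scaling without mitochondrially encoded genes moved the log2 fold change of each of the 38 genes by at most 0.00245. Across the 38 genes, the log2 fold change at 100 nM had a Spearman correlation of 0.24 with exonic length, beside 0.20 across the 7274 genes above the minimum count of the 38, where genes share the same libraries and are not independent replicates. Longer transcripts were thus slightly higher in the 100 nM library in general. Correlations with exonic GC content at 100 nM were -0.12 across the 38 genes and -0.09 across the 7274 genes. At 50 nM they were 0.12 and -0.07, and between the doses -0.31 and -0.07. With the DMSO level per length, those at 100 nM were -0.12 and -0.21.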

How the data were processed

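Paired-end reads of 75 bases were aligned by the authors to hg19 (Rsubread). The deposited values are raw counts per gene over merged exons, not normalized. Whether counting used the strand is not given in the sources used here. A deposited table of the authors' EBSeq comparisons, with posterior probabilities, fold changes and 4 columns of pooled means, was not used. Of 25702 Entrez identifiers, 23696 were given a symbol from RefSeq.

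Libraries were scaled by TMM (edgeR 4.0.16, R 4.3.3). A gene entered if any library gave it 10 counts or more, which 12879 genes did. Fold changes had 0.5 counts added per library, and 95% Clopper-Pearson intervals (scipy 1.17.1) cover counting error only. A gene was called by its interval, alone or with a log2 fold change of 0.32 in size or a fold of 2. The dose trend was edgeR's quasi-likelihood test with Benjamini-Hochberg adjustment at 0.05, and DESeq2 1.42.0 was an alternative. TPM used exonic lengths. Shared exons came from the hg19 coordinates. The procedure was tested on simulated data.

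All 38 genes are accounted for. Counts in every library are given for the 3 genes per role with the largest absolute log2 fold change at 100 nM (all where a role has 3 or 4), the most abundant per length, NCL, NPM1, FBL and MYC, and the highest and lowest gene of each other list with at least 50 counts. The members and lists were chosen with earlier results of these data known. Other genes given with counts were chosen after their values were seen.

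Alternatives were scaling by DESeq2 size factors, by total counts or by TMM from which mitochondrially encoded genes were left out, 5 counts added, minimums of 1 and 100 counts, intervals widened by a biological coefficient of variation set to 0.1 or 0.2, means for medians, and no genes with shared exons.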

Additional observations from a re-analysis of the deposited data

How the results depend on the processing

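With 1 library per condition, the spread between cultures is unknown, and this limits the results most. With the interval widened for a biological coefficient of variation set to 0.1, 1 of the 38 genes (UBTF) was lower (4.57% of all genes) and 0 were higher (7.04%) at 100 nM, where counting error alone gave 7 and 17. At 50 nM it gave 0 lower (2.01% of all genes) and 0 higher (2.94%) in place of 5 and 14, and 0 lower by 0.32 log2 units in place of 1. Between the doses it gave 0 lower (0.87% of all genes) and 0 higher (1.44%) in place of 7 and 7. With a coefficient of 0.2, 0 genes were lower and 0 higher in each of these comparisons, and 0 were lower by 0.32 log2 units at 100 nM or at 50 nM. By the interval alone, this coefficient gave 0.652% of all genes lower and 1.93% higher at 100 nM, 0.311% and 0.815% at 50 nM, and 0.396% and 0.334% between the doses. A minimum of 1 count gave 16 higher at 100 nM in place of 17, and 8 higher between the doses in place of 7. A minimum of 100 counts gave 5 lower and 18 higher at 100 nM in place of 7 and 17. It gave 16 higher at 50 nM in place of 14, and 8 higher between the doses. The shares of all genes at these minimums are not given, so these counts have no background beside them. Means in place of medians gave 0.027 in place of 0.011 at 100 nM, 0.028 in place of 0.039 at 50 nM and -0.00087 in place of 0.0073 between the doses, where the sign turned. Without genes that share exons the median between the doses was -0.0014, and 4 were higher between the doses in place of 7, by construction since fewer genes entered.

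In the dose trend, edgeR's quasi-likelihood test with Benjamini-Hochberg adjustment called 5 genes. With DESeq2 size factors it called 4 (1277 lower and 1277 higher of 12879 genes), since DKC1 was lost at an adjusted p of 0.0506 (edgeR quasi-likelihood test, Benjamini-Hochberg), and with a minimum of 100 counts it called 6 (1383 lower and 1293 higher of 10184 genes), since WDR43 was gained. DESeq2's Wald test called 1 lower (240 of 12879 genes) and 0 higher (329 of 12879 genes), and the cause was not tested. The scalings and 5 added counts moved the log2 fold change of the 38 genes against DMSO by at most 0.0036 and turned 0 directions outside the counting interval. Between the doses, scaling by total counts shifted it by 0.00499.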
